A study of Mus musculus with 24 samples.

Results

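The genes described here are 30 genes of cholesterol synthesis and sterol regulation, chosen by name, in C2C12, a line of mouse myoblasts that form myotubes once serum is lowered. All 30 were among the 14693 genes of the count table, and 29 of them were among the 12994 genes with enough counts to test. The list is not every gene of the pathway. It holds 8 genes of the mevalonate and isoprenoid steps, 11 of the steps between squalene and cholesterol, 5 that sense sterols and 6 of sterol transport, storage and efflux. The cells carried the wild-type genotype by their labels. They were kept in 10% fetal bovine serum and moved to 2% horse serum to differentiate, and during differentiation received linoleic acid (LA, a polyunsaturated fatty acid) at 100 µM on bovine serum albumin, recombinant mouse ANGPTL4 (a secreted inhibitor of lipoprotein lipase) at 10 ng/mL, or vehicle. RNA was taken at day 2 or day 6, and each of the 6 groups has 4 libraries. C2C12 is a single clonal line, the content of the vehicle is not described in the labels, and nothing there says that the libraries came from separate cultures, so p-values measure the spread between these libraries, which may be technical.

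Cholesterol is built from acetyl-CoA through mevalonate, isoprenoid diphosphates, squalene and lanosterol, and the last enzymes reshape the sterol rings in the endoplasmic reticulum. The transcription factor SREBP-2, the product of Srebf2, raises transcription of nearly all of these enzymes when membrane sterol is low, and the Insig proteins hold it and its escort Scap back when sterol is high. Oxysterols activate the liver X receptors, of which Nr1h2 encodes one, and these induce the cholesterol exporter Abca1. Differentiating muscle cells make and redistribute membrane sterol while they fuse.

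Promoter stretches are printed to show which of them hold exact matches to motifs that SREBP-2 and its partner factors are known to bind. Stretches upstream of the annotated transcription start are printed for Dhcr7, Ebp and Srebf2, which fell with LA at day 6, for Abca1, which rose, and for Hmgcs1, a classic SREBP-2 target that did not pass the test. They come from RefSeq on build GRCm38.p6, which is not the build of the counts, and only bases outside annotated exons are shown. Tm7sf2 and Msmo1, which also fell, had longest exon-free runs of 0 and 36 bases and are not printed. Capitals mark matches on either strand to the sterol regulatory element TCACNCCAC, the NF-Y box CCAAT, which reads ATTGG on the other strand, and the SP1 box GGGCGG, which reads CCGCCC there, and no matches overlap in these stretches. Dhcr7 is shown at chr7:143822917-143823144 on the plus strand, Ebp at chrX:8193513-8193762 on the minus strand, Srebf2 at chr15:82147019-82147180 on the plus strand, Abca1 at chr4:53159896-53160145 on the minus strand and Hmgcs1 at chr13:119690101-119690350 on the plus strand.
Dhcr7: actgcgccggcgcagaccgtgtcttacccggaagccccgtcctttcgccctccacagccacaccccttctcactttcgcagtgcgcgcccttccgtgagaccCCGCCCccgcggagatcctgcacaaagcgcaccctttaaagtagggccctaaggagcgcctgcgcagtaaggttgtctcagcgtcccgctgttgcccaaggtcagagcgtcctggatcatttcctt
Ebp: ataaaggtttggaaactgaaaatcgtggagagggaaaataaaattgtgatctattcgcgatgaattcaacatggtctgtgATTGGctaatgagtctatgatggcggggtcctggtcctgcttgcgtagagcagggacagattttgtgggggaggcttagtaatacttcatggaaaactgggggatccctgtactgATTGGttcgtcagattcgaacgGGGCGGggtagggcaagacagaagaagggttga
Srebf2: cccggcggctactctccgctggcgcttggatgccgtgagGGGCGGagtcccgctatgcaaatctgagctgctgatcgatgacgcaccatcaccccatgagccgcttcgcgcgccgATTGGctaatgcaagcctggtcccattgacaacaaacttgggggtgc
Abca1: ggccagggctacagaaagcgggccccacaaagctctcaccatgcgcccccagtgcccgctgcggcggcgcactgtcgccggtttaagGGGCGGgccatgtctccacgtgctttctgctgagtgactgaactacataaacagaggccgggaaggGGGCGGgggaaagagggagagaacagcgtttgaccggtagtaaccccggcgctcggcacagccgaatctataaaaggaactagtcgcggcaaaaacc
Hmgcs1: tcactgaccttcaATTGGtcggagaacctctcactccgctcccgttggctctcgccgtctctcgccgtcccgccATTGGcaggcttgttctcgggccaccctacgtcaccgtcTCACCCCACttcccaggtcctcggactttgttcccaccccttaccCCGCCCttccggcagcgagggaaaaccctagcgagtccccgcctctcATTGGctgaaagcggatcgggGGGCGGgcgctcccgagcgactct

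RefSeq promoters were matched for 25 of the 30 genes, and those of Fdps, Fdft1, Sqle, Stard4 and Npc1 were not in the table. In the 250 bases before the start, CCAAT lay in a promoter of 21 of the 25 genes, and in 22 of their 33 promoters, against 33.8% of all 32851 promoters. GGGCGG also lay in 21 of the 25 genes, and in 24 of their 33 promoters, against 32.7% of all. TCACNCCAC was found in Hmgcs1 alone of the 25, against 1.05% of all promoters. Only exact matches were searched, so near matches were not counted. The printed Srebf2 stretch holds tcaccccat, which differs from the motif in its last base. A gene without a match may therefore still hold a related site. Dhcr7 has 3 promoters in the table, of which the printed stretch belongs to the first by position; the second held none of the motifs, and the third held 2 matches to CCAAT and 3 to GGGCGG. In Abca1 neither TCACNCCAC nor CCAAT was found, while Ebp held both CCAAT and GGGCGG. The printed Srebf2 stretch ends at base -89, and its full window held 4 matches to GGGCGG, not all of them in the printed part. A match is a description of letters in a window and not evidence of binding.

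Library totals were 9.55 to 25.05 M counts with LA, 13.2 to 20.6 M with ANGPTL4 and 9.85 to 14.5 M with vehicle at day 2. At day 6 they were 8.19 to 15.2 M with LA, 6.1 to 9.07 M with ANGPTL4 and 9.85 to 12.6 M with vehicle. Replicates were not copies of the same counts. Over 36 pairs the chi-square per degree of freedom was 1.55 to 19.6 and the correlation 0.986 to 0.997. These values cannot tell repeat libraries of a culture from separate cultures. An earlier account of these data placed day 2 LA replicate 3 and day 6 ANGPTL4 replicate 1 apart from their groups, and values without both are given where they change a call. Levels are given in CPM, the count of a gene relative to a library total that is scaled by the trimmed mean of M-values (TMM), and as the libraries hold reads from transcript ends, levels of different genes are not set against each other. All 8 myoblast and myotube markers were tested, with a summed level at day 6 of 9658 to 10690 CPM with LA, 13184 to 13966 CPM with ANGPTL4 and 13585 to 14280 CPM with vehicle, so the labelled cell type has its markers.

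With LA at day 6, some enzymes between squalene and cholesterol, Fdps and Srebf2 were lower than with vehicle, and Abca1 was higher. Of the 29 tested genes, 6 fell and 1 rose, or 24.1%, against 17.2% of all tested genes called in either direction, 9.38% called lower and 7.83% called higher. Dhcr7 fell by 32.2%, Ebp by 28.7% and Tm7sf2 by 27.3%, and Abca1 rose by 51.2%. Of the 7 calls, all but that of Msmo1 held in all 33 alternatives, which were other settings or 1 library left out. The median log2 fold change was -0.10 over the members and -0.01 over all tested genes. In the squalene-to-cholesterol group 4 of 11 genes fell and all 11 fold changes were below 0, with a median of -0.15. In the mevalonate group 1 of 7 tested genes fell, among the sterol sensors 1 of 5 fell, and of the transport genes 1 of 6 rose.

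Markers of cell identity moved in the same comparison. All 8 myoblast and myotube markers fell with LA at day 6, and 4 of 7 tested fibroblast markers rose, with a summed level of 12429 to 14980 CPM with LA, against 10366 to 12008 CPM with vehicle (Thy1 was not in the table used here). Of the 8 adipocyte markers only Pparg and Cebpa were in the table used here, and both rose, with a summed level of 28.4 to 33.2 CPM with LA, against 20.2 to 22.5 CPM with vehicle. The defining adipocyte genes Adipoq, Plin1, Cidec, Fabp4, Lep and Retn were not in that table. The macrophage markers in the table summed to 1.66 to 2.38 CPM with LA, against 1.56 to 2.27 CPM with vehicle, and the endothelial ones to 0.928 to 1.35 CPM, against 0.598 to 1.35 CPM. The part of these markers in the changes of the sterol genes was not tested, and in bulk RNA fewer cells of a type and less RNA per cell cannot be told apart.

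Dhcr7 encodes the reductase that makes cholesterol from its dehydro precursor in the last step. Its levels were 60.9, 56.0, 58.6 and 59.2 CPM in day 6 LA libraries, against 93.9, 88.0, 84.4 and 79.9 CPM in day 6 vehicle libraries. Every LA library lay well below every vehicle library (log2 fold change -0.56, SE 0.0718, adjusted p = 6.5e-07, edgeR quasi-likelihood test with Benjamini-Hochberg adjustment, as for all adjusted p-values below). Ebp, the sterol isomerase that shifts a double bond in the ring, stood at 56.6, 58.6, 57.9 and 66.2 CPM with LA, against 82.1, 77.8, 84.5 and 91.0 CPM with vehicle. The highest LA library was again below the lowest vehicle library (log2 fold change -0.49, SE 0.0630, adjusted p = 7.08e-07).

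Tm7sf2, a sterol reductase of the endoplasmic reticulum that acts after lanosterol demethylation, was a low-count gene, with 71 counts at its lowest, in day 6 LA replicate 3. It had 9.88, 10.4, 8.70 and 9.26 CPM with LA, against 13.9, 13.7, 13.2 and 12.0 CPM with vehicle. The groups did not overlap (log2 fold change -0.46, SE 0.115, adjusted p = 0.00429). The transcript end of Tm7sf2 shares 279 bases on the same strand with the protein-coding gene Vps51, so its count is uncertain. Msmo1, the oxygenase that starts removal of the methyl groups at ring carbon 4, had 74.9, 98.1, 76.6 and 95.8 CPM with LA, against 111, 110.4, 107 and 103 CPM with vehicle. All LA libraries were lower, replicates 1 and 3 by far the most (log2 fold change -0.32, SE 0.0852, adjusted p = 0.00887). Without day 6 LA replicate 3 the Msmo1 call was lost (adjusted p = 0.0531, over 33 alternatives 0.00357 to 0.0531).

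The other 7 genes of the squalene-to-cholesterol group did not pass the test. Nsdhl, a dehydrogenase of the same demethylation, came nearest with a log2 fold change of -0.17 (adjusted p = 0.0557), followed by Sc5d, the desaturase that makes the substrate of Dhcr7, with -0.14 (adjusted p = 0.0973). For Fdft1 (squalene synthase) the value was -0.15 (adjusted p = 0.124), and for Cyp51 (lanosterol demethylase) -0.13 (adjusted p = 0.164). Without day 6 LA replicate 4, which was the highest LA library in all 3 genes, Fdft1 (0.0111), Cyp51 (0.0168) and Nsdhl (0.0183) passed, and in the other 32 alternatives they did not. Sqle, the squalene epoxidase that is rate-limiting in the later pathway, had 123, 161, 132 and 170.0 CPM with LA, against 155, 158, 154 and 149 CPM with vehicle. Here the LA libraries fell on both sides of the vehicle libraries (log2 fold change -0.08, SE 0.0849, adjusted p = 0.617). Lss, the lanosterol synthase, was spread in the same way at 42.4, 55.4, 36.0 and 54.5 CPM with LA, against 49.9, 48.2, 49.9 and 50.2 CPM with vehicle (log2 fold change -0.07, adjusted p = 0.762). Hsd17b7, a ketosteroid reductase, completes the group at -0.06 (adjusted p = 0.753).

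Among the mevalonate and isoprenoid genes, Fdps fell. It encodes farnesyl diphosphate synthase, which makes the precursor of both squalene and prenyl groups, and had 129, 140.3, 135 and 149.5 CPM with LA, against 175, 162, 160.2 and 167 CPM with vehicle. No LA library reached the lowest vehicle library (log2 fold change -0.26, SE 0.0602, adjusted p = 0.00203). Fdps has near-identical pseudogene copies, and its transcript ends share 919 bases on the same strand with the protein-coding gene Gm43738. Its count is uncertain to the extent that reads were shared. Hmgcs1, the cytosolic synthase of the mevalonate precursor, had 336, 415, 340.2 and 445 CPM with LA, against 397, 398, 413 and 387 CPM with vehicle. LA replicates 1 and 3 lay below all vehicle libraries and replicates 2 and 4 above them (log2 fold change -0.05, SE 0.0741, adjusted p = 0.692). Acat2 (thiolase), Mvk and Pmvk (mevalonate kinases), Mvd (the decarboxylase) and Ggps1 (geranylgeranyl diphosphate synthase) had log2 fold changes of -0.20 to 0.10, none called. Idi1, the isomerase of the pathway, had 1 to 21 counts per library and 157 in all 24, and was removed by the low-count filter. Its transcript end has near-identical pseudogene copies, so this count is uncertain.

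Srebf2 was lower with LA at day 6, with 289, 292, 301 and 303 CPM, against 340.1, 339, 342 and 335 CPM with vehicle. The difference was small but the libraries of each group were close together and did not overlap (log2 fold change -0.19, SE 0.0451, a fall of 12.6%, adjusted p = 0.00213). Srebf1, whose products act more on fatty acid genes, had 96.2, 112, 102 and 116 CPM with LA, against 115, 112, 110.0 and 103 CPM with vehicle, with overlapping groups (log2 fold change -0.05, SE 0.0557, adjusted p = 0.652). Insig1, the retention protein that is itself an SREBP-2 target, had 101, 131, 90.7 and 133 CPM with LA, against 131, 127, 131 and 119 CPM with vehicle. As with Hmgcs1, LA replicates 1 and 3 were below the vehicle libraries and replicates 2 and 4 at or above their top (log2 fold change -0.15, SE 0.113, adjusted p = 0.41). Insig2, the second retention protein, and Scap, the escort, had log2 fold changes of 0.01 and -0.05, neither called.

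Abca1, the exporter that loads cholesterol onto apolipoproteins, was the one member that rose with LA at day 6. It had 45.0, 49.8, 56.0 and 50.8 CPM with LA, against 31.7, 27.2, 39.2 and 34.2 CPM with vehicle. The lowest LA library lay above the highest vehicle library (log2 fold change 0.60, SE 0.103, adjusted p = 0.000107). Npc2, the lysosomal protein that hands cholesterol to Npc1, had 292, 323, 301 and 331 CPM with LA, against 289, 273, 281 and 272 CPM with vehicle; the LA libraries were all higher, but the test was not passed (log2 fold change 0.16, SE 0.0598, adjusted p = 0.0608). In 24 of the 33 alternatives Npc2 did pass, with an adjusted p as low as 0.00886 in a fit of the compared groups alone. Nr1h2 had 40.8, 35.6, 40.1 and 34.9 CPM with LA, against 42.1, 41.8, 37.1 and 42.3 CPM with vehicle, overlapping and not called (log2 fold change -0.11, adjusted p = 0.307). Log2 fold changes of Npc1, of Soat1 (which esterifies cholesterol for storage) and of Stard4 (a sterol carrier) were 0.05, 0.10 and -0.01, none called.

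**Figure D1:**
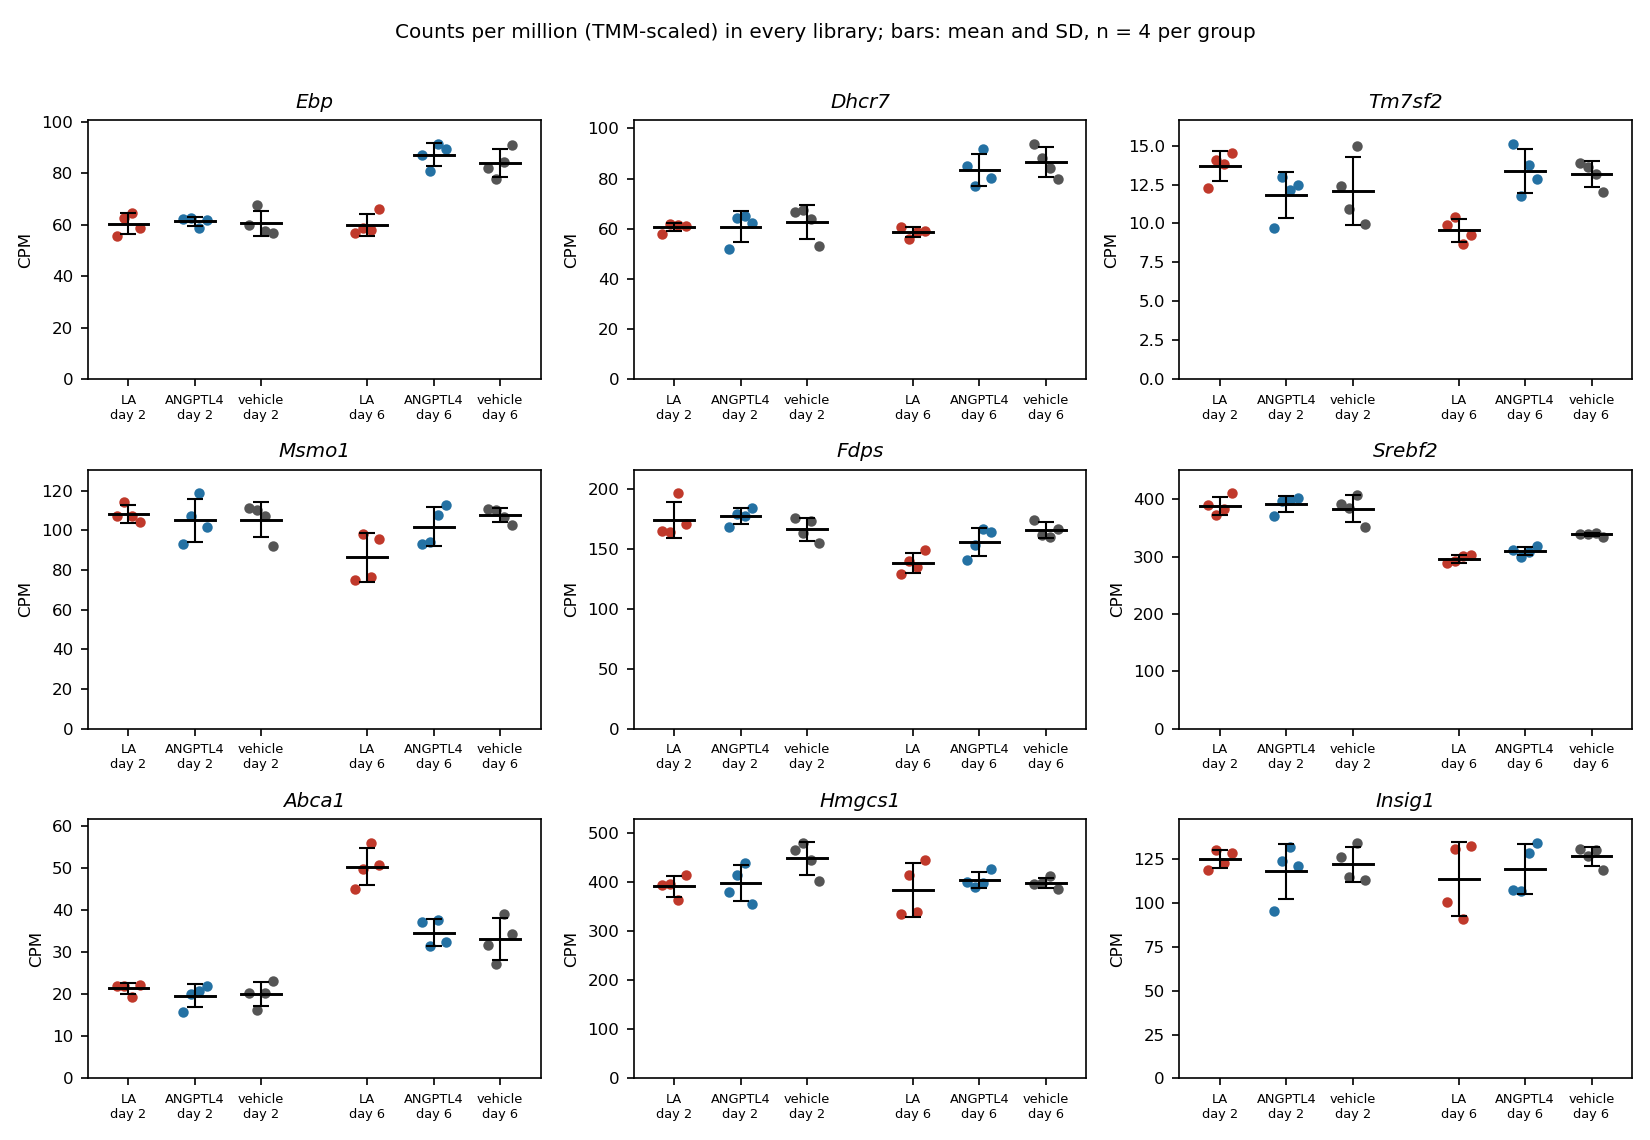
Levels of 9 members in CPM (y axis, from 0) in each library of the 6 groups, with LA in red, ANGPTL4 in blue and vehicle in grey; horizontal bars are means and error bars SD (n = 4). With LA at day 6, Dhcr7, Ebp, Tm7sf2, Msmo1, Fdps and Srebf2 lie below the vehicle libraries and Abca1 above them, while Hmgcs1 and Insig1 split into a lower and a higher pair of libraries.

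**Figure D2:**
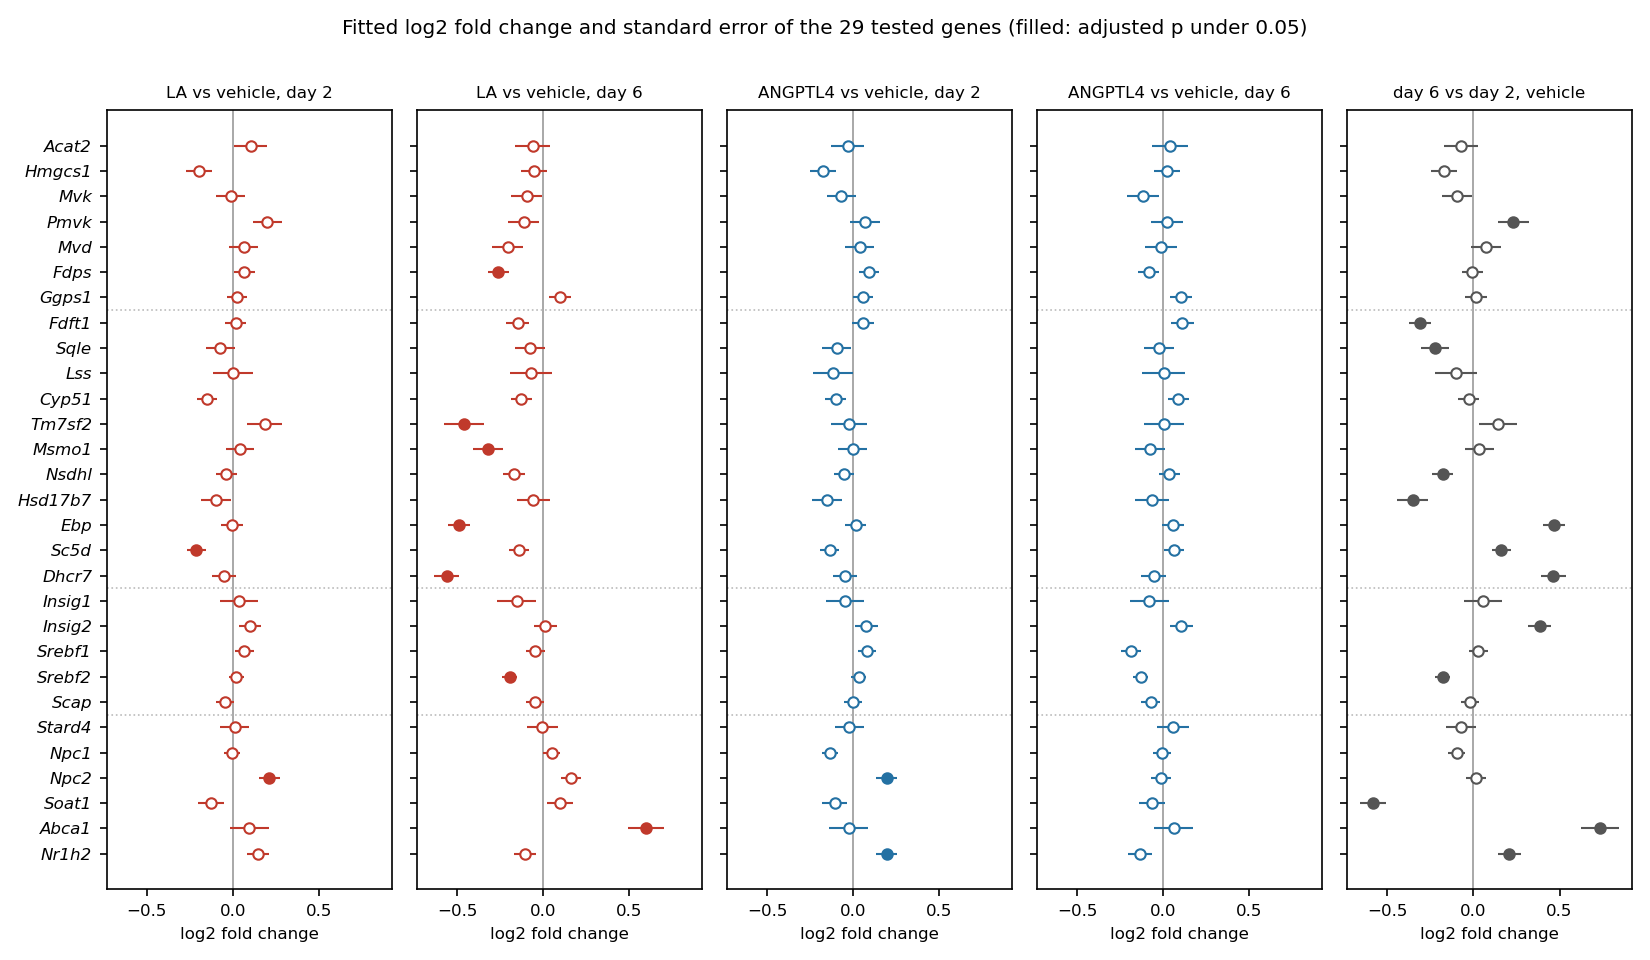
Fitted log2 fold change (x axis) and SE (horizontal bars) of the 29 tested genes in 5 comparisons, with called genes filled and dotted lines between role groups. With LA at day 6 the squalene-to-cholesterol genes, Fdft1 to Dhcr7, all lie left of 0 and 4 of the 11 are filled, and with ANGPTL4 at day 6 no gene is filled.

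The day 6 LA libraries were more spread in the enzymes than the other day 6 groups. The coefficient of variation over 4 libraries had a median over 18 enzymes of 11.7% with LA, against 5.95% with ANGPTL4 and 4.90% with vehicle. At day 2 the medians were 5.31% with LA, 7.92% with ANGPTL4 and 9.34% with vehicle. LA replicates 1 and 3 were the lower pair in 14 of the 18 enzymes (77.8%), and the same pair was lowest in 19.7% of all 12994 tested genes. The split is visible in Hmgcs1, Sqle, Lss and Insig1, whose values are given above. It is absent in Dhcr7, where replicate 2 was the lowest LA library, and in Tm7sf2, where replicates 3 and 4 were the lower pair. Library totals were 15.2, 10.4, 8.19 and 10.1 M counts in LA replicates 1 to 4. Other groups had leading lower pairs too: replicates 1 and 2 in 9 of 18 enzymes (50.0%, against 21.6% of all tested genes) with ANGPTL4 at day 6, replicates 1 and 4 in 9 with LA (18.6% of all) and in 9 with ANGPTL4 (18.3% of all) at day 2, and replicates 3 and 4 in 8 (44.4%, against 13.8% of all) with vehicle at day 2. With vehicle at day 6 no pair led in more than 5 enzymes. The labels name no batch, and the source of the split was not tested.

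**Figure D3:**
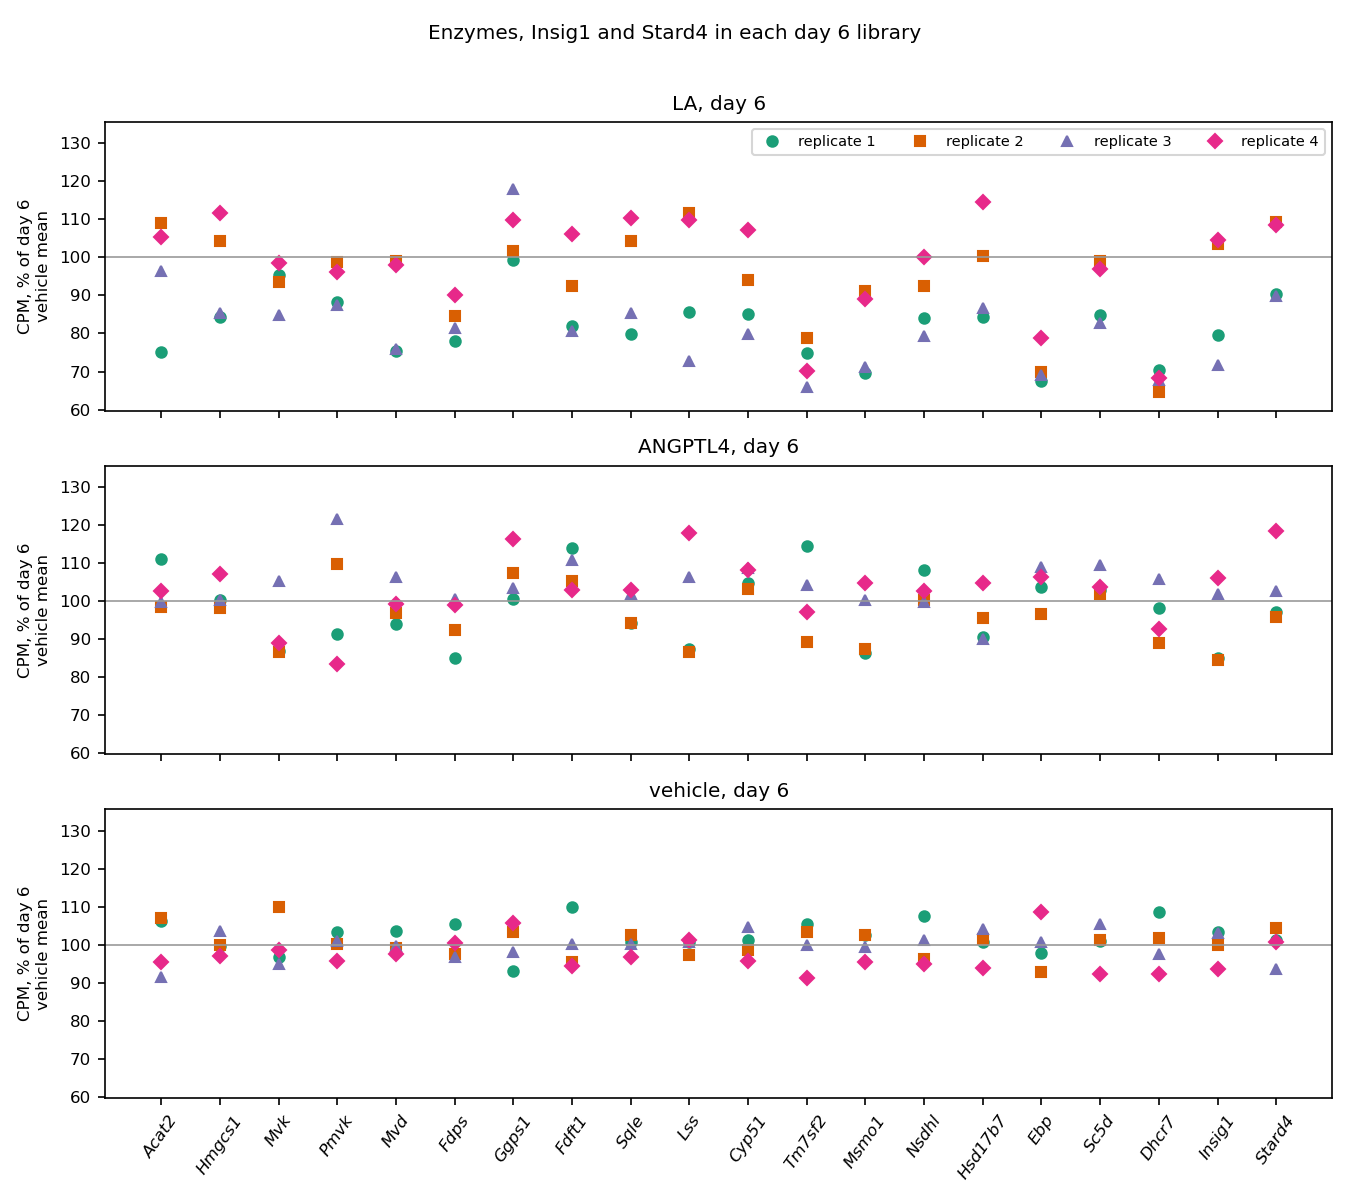
CPM of 18 enzymes, Insig1 and Stard4 in each day 6 library as a percentage of the day 6 vehicle mean (y axis; the grey line is 100%), with 1 panel per treatment and 1 marker shape per replicate. In the LA panel replicates 1 and 3 lie below replicates 2 and 4 for most genes. All 4 LA libraries lie below 100% for several genes, among them Fdps, Tm7sf2, Msmo1, Ebp and Dhcr7.

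At day 2 the same treatment changed little in this group of genes. With LA at day 2, 1 of 29 genes rose and 1 fell, against 8.27% of all tested genes called higher, 6.82% called lower and 15.1% called in all, and the median log2 fold change was 0.02 over the members and 0.01 over all genes. Sc5d had 59.4, 61.9, 56.2 and 56.6 CPM with LA, against 68.5, 70.2, 68.5 and 64.2 CPM with vehicle. All LA libraries were below all vehicle libraries (log2 fold change -0.21, SE 0.0565, adjusted p = 0.0117). The Sc5d call was lost when only the compared groups were fitted (adjusted p = 0.0515), without the libraries that stood apart (0.0691) and without day 2 LA replicate 3 alone (0.0521). Npc2 had 320.1, 329.7, 345 and 281 CPM with LA, against 301, 275, 279 and 248 CPM with vehicle. LA was higher in 15 of 16 pairs of libraries (log2 fold change 0.21, SE 0.0593, adjusted p = 0.0159), and the call was lost in 5 of 33 alternatives, among them without day 2 LA replicate 2 (0.0513), without day 2 LA replicate 3 (0.112) and without day 2 vehicle replicate 4 (0.0794). Hmgcs1 was not called with LA at day 2 but passed in 6 of 33 alternatives, and Cyp51 in 1.

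The genes that fell or rose with LA at day 6 sat with their vehicle libraries at day 2. Dhcr7 had 58.1, 61.8, 61.3 and 61.2 CPM in day 2 LA libraries, against 66.7, 67.5, 63.9 and 53.0 CPM in day 2 vehicle libraries. Ebp had 55.5, 62.7, 64.4 and 58.7 CPM with LA, against 60.0, 67.5, 57.6 and 56.8 CPM with vehicle. Abca1 had 22.0, 22.0, 19.5 and 22.2 CPM with LA, against 20.4, 16.2, 20.2 and 23.3 CPM with vehicle. In each of these genes the day 2 groups overlapped, and none was called. Tm7sf2 had 12.3, 14.1, 13.9 and 14.5 CPM with LA, against 12.4, 10.9, 15.0 and 9.98 CPM with vehicle, and Msmo1 averaged 108 ± 4.42 CPM with LA and 105 ± 8.87 CPM with vehicle (SD, n = 4 each). Fdps averaged 174 ± 15.2 CPM with LA and 167 ± 9.67 CPM with vehicle, and Srebf2 389 ± 16.0 CPM with LA and 384 ± 23.6 CPM with vehicle at that day.

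The difference between the LA effects of the days was tested directly, as the effect at day 6 minus that at day 2. It passed for 8 of 29 genes, or 27.6%, with 7 lower and 1 higher, against 19.7% of all tested genes, 11% lower and 8.68% higher. The largest was in Tm7sf2, with a difference of -0.64 on the log2 scale (SE 0.155, adjusted p = 0.00391). Dhcr7 had -0.51 (SE 0.101, adjusted p = 0.00065), Ebp -0.48 (SE 0.0883, adjusted p = 0.000289) and Fdps -0.33 (adjusted p = 0.00647). These 4 differences passed in all 33 alternatives.

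The other 4 depended on single libraries or settings. For Abca1 the difference was 0.50 (adjusted p = 0.0208), lost without the libraries that stood apart (0.0579) and without day 2 vehicle replicate 4 (0.0668). Srebf2 had -0.21 (adjusted p = 0.0168), lost in 5 alternatives, which left out day 2 LA replicate 4 (0.0683), day 6 LA replicate 2 (0.0618), or day 6 vehicle replicate 1 (0.0575), 2 (0.0671) or 4 (0.052). Msmo1 had -0.36 (adjusted p = 0.0327), lost in 17 of 33 alternatives with values of up to 0.0992. Nr1h2, with -0.25 (adjusted p = 0.0497), was lost in 29 of 33 with values of up to 0.162. This contrast holds the day 6 LA libraries in which 7 of the 8 genes were already called, so it is not separate evidence of the day 6 changes.

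Set against ANGPTL4 at day 6, a comparison that shares its LA libraries with the one above, LA had lower Dhcr7, Ebp and Tm7sf2 and higher Abca1. Of 29 genes, 7 were lower and 2 higher with LA, or 31.0%, against 13.9% of all tested genes, 7.32% lower and 6.6% higher. All 7 lower genes belong to the 11 of the squalene-to-cholesterol group. Ebp had the 4 LA values given above, against 87.0, 80.9, 91.4 and 89.3 CPM with ANGPTL4 (log2 fold change -0.54, SE 0.0645, adjusted p = 2.51e-07). For Dhcr7 the ANGPTL4 libraries had 85.0, 77.0, 91.7 and 80.3 CPM (log2 fold change of LA over ANGPTL4 -0.51, SE 0.0739, adjusted p = 7.71e-06). The groups of both genes did not overlap.

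Tm7sf2 was also lower with LA than with ANGPTL4, where it had 15.1, 11.8, 13.8 and 12.8 CPM (log2 fold change -0.47, adjusted p = 0.00808). Fdft1 had 86.7, 97.7, 85.1 and 112 CPM with LA, against 120.3, 111, 117 and 109 CPM with ANGPTL4 (log2 fold change -0.26, SE 0.0664, adjusted p = 0.00646). Of those libraries only LA replicate 4 entered the ANGPTL4 range. Cyp51 had 198, 219, 186 and 250 CPM with LA, against 244, 241, 253 and 252 CPM with ANGPTL4. Nsdhl had 73.1, 80.5, 69.0 and 87.1 CPM with LA, against 94.1, 87.2, 86.8 and 89.4 CPM with ANGPTL4. Sc5d had 64.3, 75.2, 62.9 and 73.6 CPM with LA, against 78.2, 77.4, 83.0 and 78.8 CPM with ANGPTL4. The groups overlapped in Cyp51 and Nsdhl and did not in Sc5d. Cyp51 (-0.21, adjusted p = 0.0161), Nsdhl (-0.21, adjusted p = 0.026) and Sc5d (-0.20, adjusted p = 0.0175) passed as well, but none of these calls held without day 6 LA replicate 1, day 6 LA replicate 3 or day 6 ANGPTL4 replicate 3 (adjusted p of 0.0679 to 0.139 for Cyp51, 0.0502 to 0.154 for Nsdhl and 0.0813 to 0.11 for Sc5d). Further libraries whose removal ended a call were day 6 ANGPTL4 replicate 4 for Cyp51 (0.0637) and day 6 ANGPTL4 replicates 1 (0.106), 2 (0.0568) and 4 (0.0735) for Nsdhl. Abca1 was higher with LA than with ANGPTL4, where it had 37.2, 31.5, 37.6 and 32.4 CPM (log2 fold change 0.54, SE 0.108, adjusted p = 0.000747), and Npc2 was higher by 0.17 (adjusted p = 0.0499, lost in 9 of 33 alternatives, with values of up to 0.141 without day 6 LA replicate 4). Of the 6 genes that fell against vehicle, Fdps (-0.18, adjusted p = 0.0505), Msmo1 (-0.24, adjusted p = 0.0622) and Srebf2 (-0.06, adjusted p = 0.426) did not pass against ANGPTL4. Fdps passed in 6 of 33 alternatives (lowest adjusted p 0.0079, without the libraries that stood apart) and Msmo1 in 3 (lowest 0.0277, without day 6 LA replicate 2). Without day 6 ANGPTL4 replicate 3 the count over all members was 5 in place of 9. At day 2, LA and ANGPTL4 differed in 0 of 29 genes by edgeR, against 0.0924% of all tested genes (0.0616% higher and 0.0308% lower); 2 had an unadjusted p under 0.05, and DESeq2 and limma-voom also called 0.

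ANGPTL4 itself changed few of these genes relative to vehicle, in a comparison that shares the vehicle libraries with that of LA. At day 2, 2 of 29 genes rose and 0 fell, against 3.86% of all tested genes higher, 5.96% lower and 9.82% in all. Npc2 had 292, 311, 319.6 and 341 CPM with ANGPTL4, against 301, 275, 279 and 248 CPM with vehicle, higher in 15 of 16 pairs (log2 fold change 0.19, SE 0.0593, adjusted p = 0.0354). Nr1h2, the liver X receptor, had 39.0, 38.4, 40.4 and 43.8 CPM with ANGPTL4, against 34.8, 35.3, 34.7 and 36.1 CPM with vehicle, without overlap (log2 fold change 0.19, SE 0.0634, adjusted p = 0.0479). Both calls were at the margin: that of Npc2 was lost in 19 of 33 alternatives, with adjusted p-values of up to 0.158 (without day 2 ANGPTL4 replicate 4), and that of Nr1h2 in 29, with values of up to 0.189 (without the same library).

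At day 6, ANGPTL4 called 0 of 29 genes by edgeR, against 0.0231% of all tested genes (0.0154% higher and 0.0077% lower); 2 had an unadjusted p under 0.05, and DESeq2 and limma-voom called 0 each. These were the transcription factors Srebf1 and Srebf2. Srebf1 had 101, 93.2, 101 and 92.5 CPM with ANGPTL4, against 115, 112, 110.0 and 103 CPM with vehicle, without overlap (log2 fold change -0.19, SE 0.0572, adjusted p = 0.166). Srebf2 had 311, 300.2, 309 and 318 CPM with ANGPTL4, against 340.1, 339, 342 and 335 CPM with vehicle, also without overlap (log2 fold change -0.13, SE 0.0454, adjusted p = 0.225). Insig1 averaged 119.5 ± 14.2 CPM with ANGPTL4 and 127 ± 5.64 CPM with vehicle (SD, n = 4 each). Between the days the ANGPTL4 effect differed in 0 genes by edgeR, against 0.277% of all tested genes (0.0847% higher and 0.192% lower), with 7 at an unadjusted p under 0.05 and 0 by DESeq2 and limma-voom, and the lowest adjusted p was 0.0739, for Nr1h2.

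Members that LA changed at day 6 overlapped vehicle in ANGPTL4 libraries, except Srebf2 at day 6. At day 2, Dhcr7 had 51.9, 64.1, 65.3 and 62.2 CPM, Ebp 62.2, 62.5, 58.7 and 61.6 CPM, and Abca1 15.8, 20.2, 20.8 and 22.0 CPM with ANGPTL4. Tm7sf2 had 9.70, 13.0, 12.2 and 12.5 CPM and Msmo1 93.0, 107, 119 and 102 CPM with ANGPTL4 at that day. All of these overlapped the day 2 vehicle libraries. At day 6, Msmo1 had 92.9, 94.1, 108 and 113 CPM and Fdps 141, 153, 167 and 164 CPM with ANGPTL4, which also overlapped vehicle. At day 6, Npc2 had 261, 279, 277 and 286 CPM and Nr1h2 38.6, 36.7, 34.5 and 38.6 CPM with ANGPTL4, overlapping vehicle, and neither was called.

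With vehicle alone, day 6 differed from day 2 in 13 of 29 genes, or 44.8%, close to the 45.6% of all tested genes; 7 rose (25.2% of all genes) and 6 fell (20.5%). The genes that rose were Abca1, Ebp, Dhcr7, Insig2, Pmvk, Nr1h2 and Sc5d, and those that fell were Soat1, Hsd17b7, Fdft1, Sqle, Nsdhl and Srebf2. Dhcr7 rose by a log2 fold change of 0.46 (SE 0.0709, adjusted p = 2.71e-06) and Ebp by 0.47 (SE 0.0624, adjusted p = 2.61e-07), with the day 6 and day 2 values given above. The day 6 vehicle libraries of both were all above the day 2 vehicle libraries. With LA, Ebp averaged 59.8 ± 4.33 CPM at day 6 and 60.3 ± 4.00 CPM at day 2, and Dhcr7 58.7 ± 2.03 CPM at day 6 and 60.6 ± 1.71 CPM at day 2 (SD, n = 4 each). Abca1 rose in vehicle by 0.73 (SE 0.112, adjusted p = 5.2e-06), and averaged 50.4 ± 4.51 CPM at day 6 and 21.4 ± 1.29 CPM at day 2 with LA.

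Insig2 had 79.0, 80.2, 76.0 and 83.8 CPM in day 6 vehicle libraries, against 62.9, 60.2, 61.8 and 59.3 CPM in day 2 vehicle libraries. All day 6 libraries were higher (log2 fold change 0.39, SE 0.0665, adjusted p = 1.74e-05). Soat1, the esterifying enzyme, had 111, 107, 126 and 128 CPM at day 6, against 181, 153, 184 and 191 CPM at day 2. Here all day 6 libraries were lower (log2 fold change -0.58, SE 0.0746, adjusted p = 2.65e-07). Hsd17b7 fell by 0.35 on the log2 scale (adjusted p = 0.00244), Fdft1 by 0.31 (adjusted p = 0.000205) and Srebf2 by 0.18 (adjusted p = 0.00163).

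The remaining calls of vehicle over time were less firm, and Hmgcs1, not called (log2 fold change -0.17, adjusted p = 0.0594), passed in 22 of 33 alternatives. Nr1h2 rose by 0.21 (adjusted p = 0.00969), lost without day 6 vehicle replicate 1 (0.0564) or 4 (0.0514), and Nsdhl fell by 0.18 (adjusted p = 0.0171), lost without day 2 vehicle replicate 2 (0.0607). Pmvk rose by 0.23 (adjusted p = 0.0339), Sc5d rose by 0.16 (adjusted p = 0.0198) and Sqle fell by 0.22 (adjusted p = 0.0327), of which Pmvk was lost in 25 of 33 alternatives (up to 0.131 without day 2 vehicle replicate 4) and Sc5d in 14 (up to 0.0906 without day 6 vehicle replicate 2). The call of Sqle was lost without day 2 vehicle replicate 1 (0.0736) or 2 (0.0832) and without day 6 vehicle replicate 3 (0.0582) or 4 (0.0604).

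Genes around the pathway were read from 4 further lists. With LA at day 6, 5 of 12 genes of SREBP cleavage and sterol-dependent turnover rose and 0 fell, against 7.83% of all tested genes higher and 9.38% lower, with a median log2 fold change of 0.09. Pgrmc1, a haem and sterol binding protein of the endoplasmic reticulum, rose by 0.24 (adjusted p = 0.00178), and Rnf145, a sterol-responsive ubiquitin ligase, by 0.18 (adjusted p = 0.00584). Erlin1, a cholesterol-binding scaffold of the degradation machinery, rose by 0.24 (adjusted p = 0.0164), a call lost without day 6 LA replicate 4 (0.0836) or day 6 vehicle replicate 2 (0.0557). Among 20 tested genes of sterol uptake, movement and liver X receptor targets, 4 rose and 1 fell, against the same shares, with a median of 0.00. Stard5, a sterol carrier, rose by 0.81 (SE 0.153, adjusted p = 0.000217) and Vldlr, a lipoprotein receptor, by 0.48 (adjusted p = 0.001), while Gramd1b, which moves cholesterol from the plasma membrane to the endoplasmic reticulum, fell by 0.50 (adjusted p = 1.23e-07).

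Of 14 fatty acid genes that SREBP-1 regulates, 4 fell and 2 rose with LA at day 6, against 9.38% and 7.83% of all tested genes, with a median of -0.06. Scd2, a desaturase, fell by 0.34 (adjusted p = 0.000361), Mid1ip1, an activator of fatty acid synthesis, by 0.30 (adjusted p = 0.00302), and Fads2, the first desaturase of linoleic acid, by 0.17 (adjusted p = 0.0315, a call that held in 15 of 33 alternatives). Of 14 genes of non-sterol isoprenoid use 1 fell, Dhdds, a subunit of the dolichol-making transferase, by 0.18 (adjusted p = 0.0294, held in 15 of 33). At day 2 LA called 1 gene higher in the first of these lists (Rnf139), 1 lower in the isoprenoid list (Pggt1b), 1 lower in the uptake list (Lrp1) and 1 each way in the fatty acid list (Me1 higher and Acsl3 lower). Of the genes not called with LA at day 2, Gramd1b passed in 21 of 33 alternatives, Elovl6 in 15, Mid1ip1 in 4 and Tmem97 in 2. ANGPTL4 called 3 genes lower over the lists at day 2 (Gramd1b, Cyp27a1 and Acaca) and 0 at day 6, against the shares of all genes given above for each comparison.

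**Figure D4:**
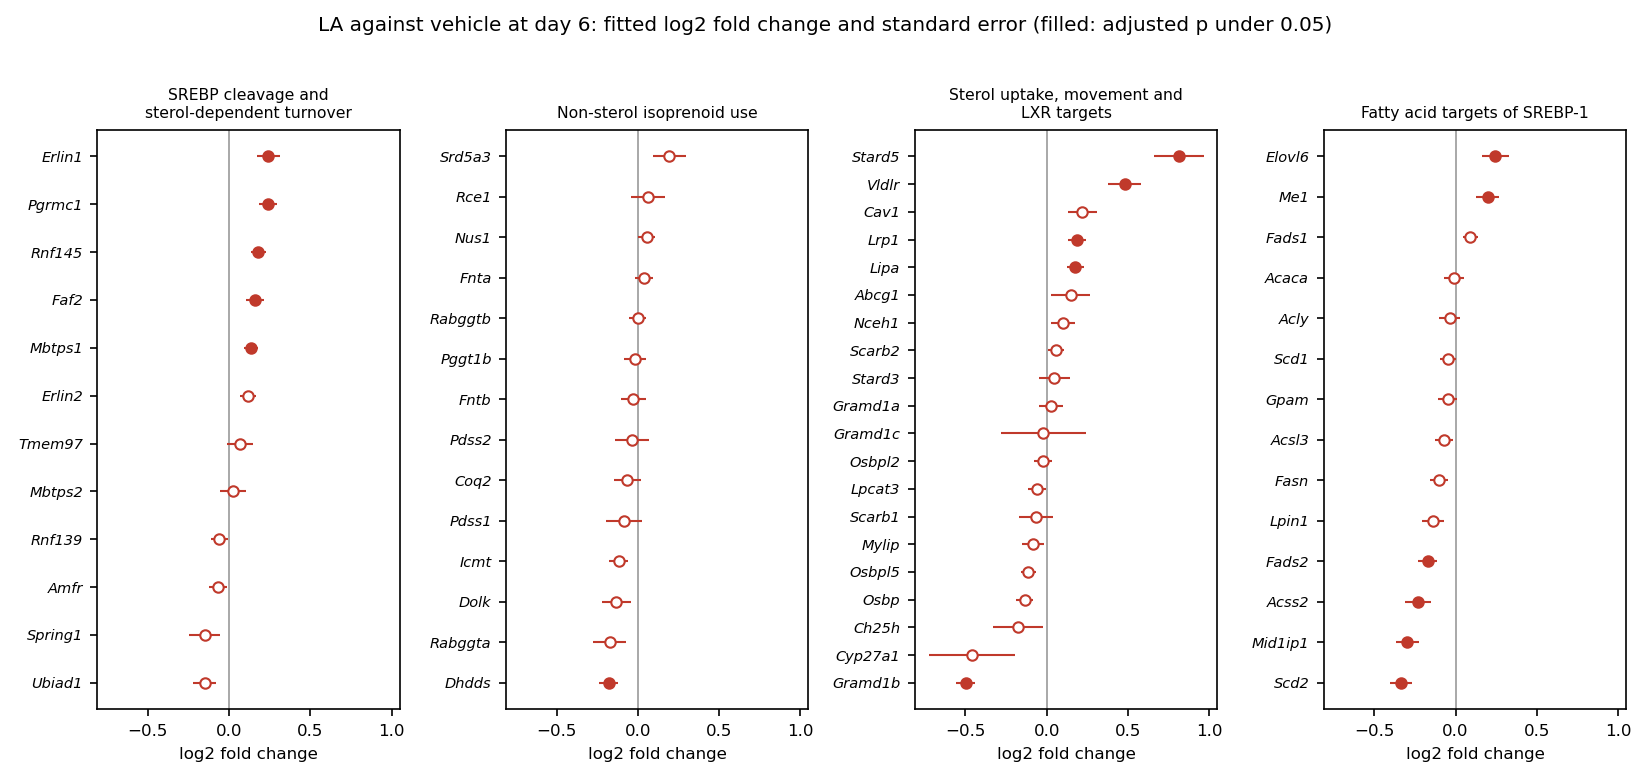
Fitted log2 fold change of LA over vehicle at day 6 (x axis) with SE (horizontal bars) for the tested genes of the 4 further lists, filled where called. Stard5 and Vldlr lie farthest to the right and Gramd1b farthest to the left among called genes, and 5 of 12 genes in the cleavage and turnover panel are filled, all right of 0.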

How the data were processed

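Transcript ends were sequenced from total RNA (integrity number above 7) with a QuantSeq 3′ kit, per the labels' protocols. The deposited values were raw counts per gene symbol for 14693 genes and 24 libraries. Trimmomatic, STAR 2.7.1a, HTSeq 0.9.1, DESeq2, DESeq and the build mm39 are named in the submitters' processing notes; their order, settings and strand handling are not given in the sources used here.

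The low-count filter filterByExpr of edgeR left 12994 genes and removed 1699. All 24 libraries were fitted as 6 group means with the robust quasi-likelihood method of edgeR 4.0.16 in R 4.3.3, on TMM-scaled totals, with 18 residual degrees of freedom and a common biological coefficient of variation of 6.51%. For each of 9 contrasts, Benjamini-Hochberg adjustment ran over all tested genes, and genes with an adjusted p under 0.05 were called. Standard errors were approximated by dividing the size of a log2 fold change by the root of F. Levels are CPM computed from the counts and TMM-scaled totals.

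The members and lists were chosen with earlier results of these data known. Named by library were members called in a comparison of a treatment with vehicle or a difference between days, plus Srebf1, Srebf2, Insig1 and Abca1, with some groups given as means; other members printed by library were picked after their values were seen. From each further list up to 3 called genes per treatment comparison were named.

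By GENCODE transcripts of GRCm38, the last 500 nucleotides of 10 members overlap another gene (Cyp51, Fdft1, Fdps, Ggps1, Hmgcs1, Lss, Npc1, Scap, Srebf1 and Tm7sf2), so their counts are uncertain. Tm7sf2 and Fdps overlap theirs on the same strand (279 bases with Vps51 and 919 with Gm43738). Near-identical copies over at least 100 nucleotides make the counts of Acat2, Fdps, Ggps1 and Idi1 uncertain too.

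On simulated counts for the day 6 LA comparison (12827 genes), 35 of 67 genes changed by 1.25-fold, 49 of 67 by 1.5-fold and 60 of 66 by 2-fold were recovered, with 6 false among 150 calls. The simulation changed a far smaller share of genes than the 17.2% called in the real comparison. All other genes had the same mean level in every group. Its shares recovered need not hold for the real data. Alternatives were DESeq2 size factors, library totals alone, limma-voom (limma 3.58.1), DESeq2 1.42.0, no filter on low counts, a minimum of 5 CPM in 4 or more libraries, only the compared groups, a replicate block, the 2 libraries that stood apart left out, and each library left out in turn.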

Additional observations from a re-analysis of the deposited data

Results flagged for a closer look

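Of 174 sets of 4 libraries (29 genes in 6 groups), 6 held a library far from the other 3 by Dixon's criterion, which chance meets in about 1 in 20 sets. Mvk was high at 26.4 CPM in day 2 ANGPTL4 replicate 4, where the others had 21.4 to 22.1 CPM. It was also high at 23.7 CPM in day 6 ANGPTL4 replicate 3, against 19.5 to 20.04 CPM in the others. Srebf2 was low at 372 CPM in day 2 ANGPTL4 replicate 1 (others 397 to 402 CPM), and Npc1 was low at 68.4 CPM in day 6 LA replicate 1 (others 71.3 to 71.4 CPM). Abca1 was low at 19.5 CPM in day 2 LA replicate 3 (others 22.0 to 22.2 CPM), and Nr1h2 was low at 37.1 CPM in day 6 vehicle replicate 3 (others 41.8 to 42.3 CPM).

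The effect of LA differed between day 6 and day 2 in 8 genes by the test of the difference itself. On the log2 scale, day 6 minus day 2, the differences were -0.64 for Tm7sf2, -0.51 for Dhcr7, -0.48 for Ebp, -0.36 for Msmo1, -0.33 for Fdps, -0.25 for Nr1h2, -0.21 for Srebf2 and 0.50 for Abca1.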

How the results depend on the processing

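Over 33 alternatives, 23 of 41 calls of member genes held in all. No gene called in the main fit or in an alternative changed direction between them. Directions of genes called in neither were not compared. The count of members called stayed within 1.5 times its value for LA against vehicle at day 6 (7, with 7 to 10 when 1 library was left out), for vehicle over time (13, with 10 to 14) and, at 0, for both LA against ANGPTL4 at day 2 and ANGPTL4 against vehicle at day 6. For LA at day 2 it was 2, with 0 to 4 when 1 library was left out (0 without day 2 LA replicate 3), 0 when only the compared groups were fitted and 0 without the libraries that stood apart. For ANGPTL4 at day 2 it was 2, with 0 to 2 when 1 library was left out, 1 with DESeq2 size factors, no low-count filter, the 5 CPM filter, DESeq2 or the replicate block, and 0 when only the compared groups were fitted. LA against ANGPTL4 at day 6 gave 9, with 5 to 11 when 1 library was left out. The LA difference between days gave 8, with 5 to 8 when 1 library was left out (5 without day 2 vehicle replicate 4 or day 6 vehicle replicate 1, 2 or 4) and 5 without the libraries that stood apart. The ANGPTL4 difference gave 0, with 0 to 1 when 1 library was left out and 1 with library totals alone. The cause of these shifts was not tested beyond the libraries or groups each alternative removes. The replicate block moved no other count past that bound. The replicate numbers gave no sign that they pair the samples, which does not show that no pairing existed. Same-numbered libraries had correlations of their deviations of -0.31 to 0.30, over 0.1 in 8 of 60 pairs. Differently numbered ones had -0.35 to 0.35, over 0.1 in 32 of 180 pairs. Counts were low for Tm7sf2 and Idi1. The transcript end of Idi1 matches the pseudogene Gm13502 over 378 bases at 100% identity, and that of Tm7sf2 shares 279 bases with Vps51. Whether depth or shared sequence limited these counts was not tested.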
